A study of Homo sapiens with 6 samples.

Results

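The ZNF genes, human genes whose symbol is ZNF followed by a number, are mostly zinc finger genes, and 247 of them were expressed in Panc-1 cells by the rule used here. A gene was counted as expressed when at least 1 probe set that names only that gene had a mean log2 signal over the 6 arrays at or above 6.64, the log2 of a signal of 100. The 247 genes come from 425 ZNF genes with such probe sets on the array, and they make up 247 of the 9850 genes tested by the same rule. The members were thus chosen by mean signal over both groups, a rule that does not use the difference between them. A high signal in 1 group alone could still carry a gene past the limit. The ZNF genes were also chosen as the subject with earlier results of these data known, so the choice was not blind to the difference. Panc-1 is an established human pancreatic adenocarcinoma line, so a single line stands for the tumour. The arrays are Affymetrix Human Genome U133 Plus 2.0 arrays, 3 from Panc-1 cells given TGFβ (porcine transforming growth factor beta 1 at 5 ng/mL) for 48 h after 24 h without serum, and 3 from untreated Panc-1 cells. The label text on serum is the same for both groups. The study's methods give the dose as 5 nM, and this conflict with the labels was not settled. TGFβ is a cytokine used in the study to induce EMT, the epithelial-mesenchymal transition, a change of epithelial cells into motile cells with few contacts to each other.

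Most ZNF genes encode proteins with an array of C2H2 zinc fingers, small folds held by a zinc ion that each read a few bases of DNA. Many of them also carry a KRAB domain at the amino end, which recruits the corepressor TRIM28 (KAP1) and through it the histone methyltransferase SETDB1, HP1 proteins and the NuRD deacetylase complex. KRAB zinc finger proteins silence retrotransposons and other targets, and their genes arose by repeated duplication, above all on chromosome 19. Other ZNF proteins act outside this pathway, as activators, as partners of other corepressors, or on RNA and ribosomes. Recent duplicates have near-identical sequence, so a probe set assigned to 1 ZNF gene can also bind the message of a relative, and the assignment of every value to a single gene is uncertain to that degree. Whether each of the 247 symbols stands for a C2H2 protein was not examined here.

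The arrays of each group were closely alike. Over the 16440 probe sets kept, the lowest correlation within a group was 0.9946, and correlations were 0.954 to 0.960 across the groups. The median signal of an array lay between 5.14 and 5.21 on the log2 scale. Of 8 markers of carcinoma and epithelial cells, 6 had a brightest probe set above the limit, while KRT19 and E-cadherin (CDH1) did not, CDH1 with a mean of 5.56 on TGFβ arrays and 7.58 on untreated arrays. Of the 6, 5 were lower with TGFβ by limma, by most in KRT8 (log2 fold change -2.18, adjusted p = 3.64e-06). None of the 10 measured markers of leukocytes, endothelium, liver, islets, stroma and glia reached it, and the highest stood at 6.07. The difference between 3′ and 5′ control probe sets of ACTB, a measure of RNA integrity and labelling, was 0.34 ± 0.060 on TGFβ arrays and 0.55 ± 0.030 on untreated arrays (log2, SD, n = 3 arrays each), and that of GAPDH was -0.028 ± 0.023 on TGFβ arrays and -0.0096 ± 0.0096 on untreated arrays. The ACTB value moved with treatment, and its part in the results was not tested.

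The comparison asked which ZNF messages differ between TGFβ-treated and untreated cells. More ZNF genes were lower than higher with TGFβ. The ZNF genes were chosen with earlier results of these data known, so these counts are no independent evidence of a direction. By limma with Benjamini-Hochberg adjustment over all genes tested, 141 of the 247 passed an adjusted p of 0.05, which is 57.1% beside 58.0% of all genes. Of these, 109 were lower, which is 44.1% of the ZNF genes beside 30.4% of all genes. A further 32 were higher, 13.0% beside 27.5% of all genes, and 106 did not pass. Both counts depended on the arrays used, at 20 higher and 80 lower in a fit without those numbered 3. The median log2 fold change of the ZNF genes was -0.15, with quartiles of -0.32 and 0.029, and that of all genes was -0.011, with quartiles of -0.22 and 0.19. These are bulk values, so fewer cells with a message and less message per cell cannot be told apart. The shifts were small in size. Past the test and lower by at least 1.5-fold were 17 ZNF genes, 6.88% beside 6.7% of all genes, so at this size the share lower was nearly that of all genes. Higher by as much were 3, 1.21% beside 5.84% of all genes. The signal limit was set on the mean of both groups, and 6 members passed it with a TGFβ mean below the limit and 2 with an untreated mean below it. Among the 239 with both means above it, a subset taken after the values were seen, 30 were higher and 104 lower (12.6% and 43.5%). These are gene means, so a member with several probe sets could still hold one kept through a single group. Examples are ZNF236, ZNF227 and ZNF548, with probe sets at TGFβ means of 6.38, 6.53 and 6.60. ZNF81 held a probe set with an untreated mean below the limit. The 239 are thus not free of this selection. A list of genes is described here by counts and medians beside those of all genes, with no test of the list itself. The share called in all genes, 27.5% higher and 30.4% lower, stands beside each list.

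**Figure D1:**
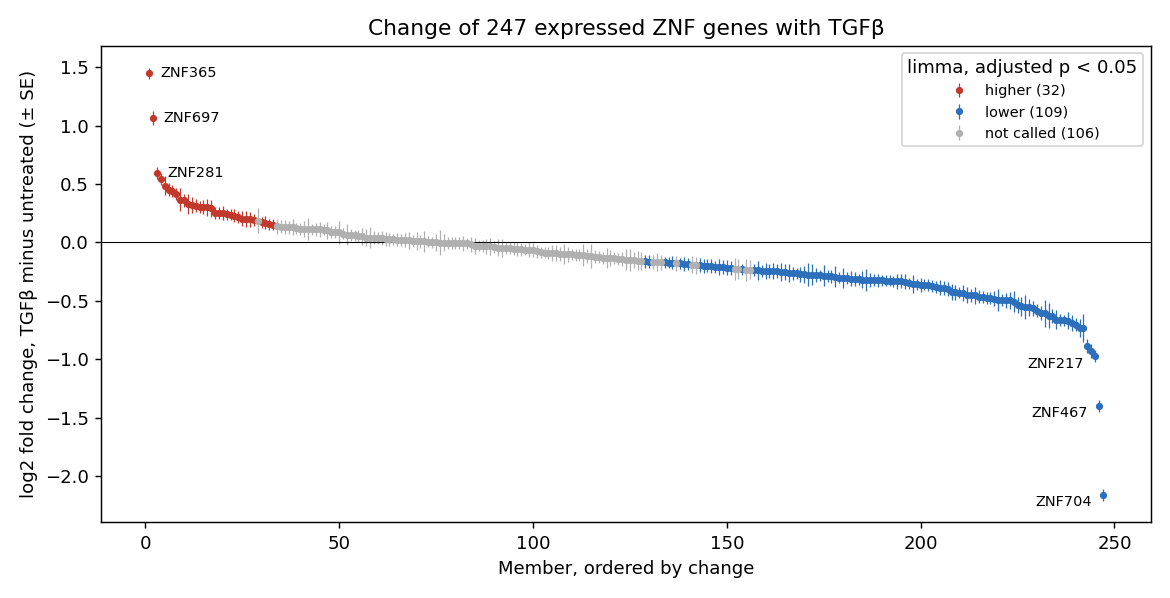
Change of each of the 247 expressed ZNF genes, ordered from the largest rise to the largest fall. The vertical axis is the log2 fold change, TGFβ minus untreated, with bars of 1 SE, and colours mark the 32 higher, 109 lower and 106 not called genes. ZNF365 and ZNF697 stand apart at the top and ZNF704 and ZNF467 at the bottom.

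More members lay below 0 than above it in each pair of same-numbered arrays, at 156 in pair 1 and 173 each in pairs 2 and 3 (63.2%, 70.0% and 70.0%, beside 46.4%, 54.0% and 53.9% of all genes). Among the ZNF genes, 173 had a fitted log2 fold change below 0, which is 70.0% beside 51.6% of all genes. The 3 TGFβ arrays and the 3 untreated arrays did not overlap for 160 of the 247 ZNF genes. This share was near the 67.6% of all genes. Without overlap, 118 of the 247 were lower and 42 higher, beside 34.9% and 32.6% of all genes. In all 3 same-numbered pairs 132 of the 247 ZNF genes were lower and 49 were higher, beside 38.8% and 36.8% of all genes. The median difference of the ZNF genes was -0.076 in pair 1, -0.18 in pair 2 and -0.15 in pair 3, and that of all genes was 0.028, -0.032 and -0.030. On single arrays, the median ZNF signal lay 0.89, 0.90 and 0.88 below the median of all genes tested with TGFβ, against 0.74, 0.80 and 0.82 below it without.

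**Figure D2:**
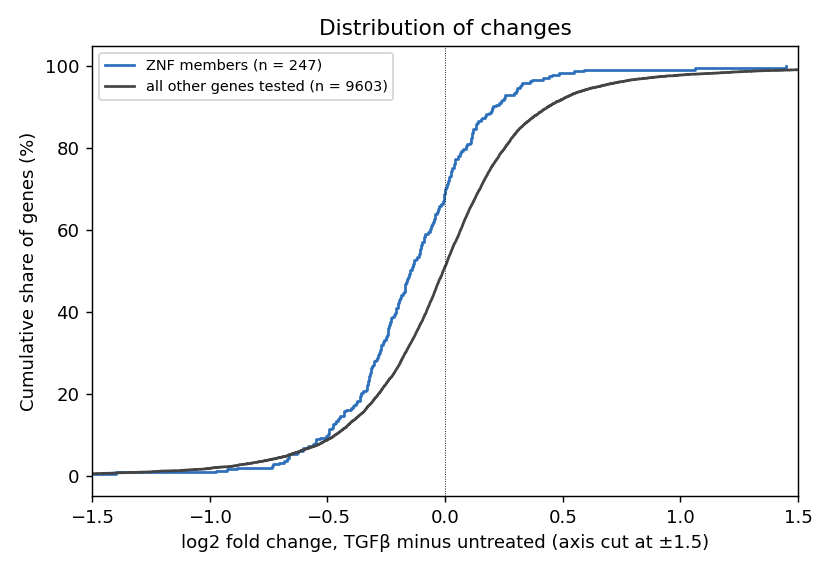
Cumulative share of genes, in percent, by log2 fold change, TGFβ minus untreated, for the 247 ZNF genes and for the other genes tested. The ZNF curve lies left of the other over most of the range, with medians of -0.15 for the ZNF genes and -0.011 for all genes, and the curves meet near -0.6.

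ZNF365 and ZNF697 were the only ZNF genes that rose by 2-fold or more. ZNF365, a protein tied to genome stability, had signals of 10.17, 10.09 and 10.09 on the TGFβ arrays, against 8.74, 8.68 and 8.59 on the untreated arrays. It rose 2.73-fold (log2 fold change 1.45, SE 0.049, adjusted p = 7.74e-06, limma). With all of its probe sets, also those below the signal limit, the log2 fold change was 0.71. ZNF697 had 9.13, 8.91 and 9.0 on the TGFβ arrays, against 7.94, 7.94 and 7.97 on the untreated arrays, and rose 2.09-fold (log2 fold change 1.06, SE 0.061, adjusted p = 4.39e-05), or by 0.61 on the log2 scale with all of its probe sets. For both genes every TGFβ array lay above every untreated array.

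The next rises were 1.51-fold or less and included factors of different kinds. ZNF281, a transcription factor that acts with SNAIL in EMT, had 10.03, 9.97 and 10.02 on the TGFβ arrays, against 9.41, 9.45 and 9.38 on the untreated arrays (log2 fold change 0.59, SE 0.052, adjusted p = 0.000231), and its brightest probe set alone gave 0.38. ZNF593, the relative of a yeast factor of ribosome export, was among the brightest members, with 11.11, 11.08 and 11.20 on the TGFβ arrays, against 10.51, 10.62 and 10.62 on the untreated arrays (log2 fold change 0.55, SE 0.053, adjusted p = 0.000336). ZNF622, whose yeast relative acts in maturation of the large ribosomal subunit, had 9.64, 9.69 and 9.53 on the TGFβ arrays, against 9.16, 9.18 and 9.15 on the untreated arrays (log2 fold change 0.45, SE 0.052, adjusted p = 0.000664). The groups did not overlap for any of these 3 genes. ZNF532, part of a chromatin-binding complex with ZNF592, ZNF687 and ZMYND8, rose with a log2 fold change of 0.42 (adjusted p = 0.000916), and its signals were 8.67, 8.57 and 8.65 on the TGFβ arrays, against 8.22, 8.10 and 8.31 on the untreated arrays. ZNF202, a repressor of lipid metabolism genes, rose by less, with 7.96, 7.77 and 7.87 on the TGFβ arrays, against 7.52, 7.52 and 7.48 on the untreated arrays (log2 fold change 0.36, SE 0.057, adjusted p = 0.00229). Both genes had every TGFβ array above every untreated array. ZNF468 and ZNF787 rose with log2 fold changes of 0.49 (adjusted p = 0.00278) and 0.44 (adjusted p = 0.000634), and for ZNF787 the value was 0.21 with all probe sets. ZNF428 had 7.97, 8.18 and 8.20 on the TGFβ arrays, against 7.89, 7.76 and 7.60 on the untreated arrays. The groups were only just apart, and its rise of 0.37 (adjusted p = 0.0197) did not pass the test without the arrays numbered 2 (0.34, adjusted p = 0.0748), without those numbered 3 (0.25, adjusted p = 0.0735) or with all probe sets (0.20, adjusted p = 0.0569).

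The largest change of any ZNF gene was the fall of ZNF704, a relative of ZNF395. Its signals were 7.12, 7.07 and 7.09 on the TGFβ arrays, against 9.25, 9.22 and 9.29 on the untreated arrays. It was 4.47-fold lower with TGFβ (log2 fold change -2.16, SE 0.049, adjusted p = 3e-06), and its 2 probe sets above the limit, of 6 on the array, gave log2 fold changes of -1.97 and -2.35. With all probe sets the log2 fold change was -0.99. ZNF467, whose mouse counterpart favours fat over bone cells, had 6.36, 6.09 and 6.34 on the TGFβ arrays, against 7.70, 7.53 and 7.75 on the untreated arrays, so its mean with TGFβ lay below the signal limit and it was kept only through the untreated arrays. Its log2 fold change of -1.40, or -0.64 with all probe sets, is given as a description.

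ZNF217, an oncogene amplified in breast cancer that works with the LSD1 and CoREST corepressors, was one of the brightest members and fell 1.96-fold. Its signals were 11.01, 10.95 and 10.98 on the TGFβ arrays, against 11.96, 11.98 and 11.93 on the untreated arrays (log2 fold change -0.97, SE 0.050, adjusted p = 2.96e-05). No alternative setting moved this value by more than 1.5 times. ZNF503, a corepressor of the NET family, had 7.39, 7.25 and 7.37 on the TGFβ arrays, against 8.18, 8.26 and 8.23 on the untreated arrays (log2 fold change -0.88, SE 0.060, adjusted p = 8.22e-05). This fall rested on a single probe set above the limit, since with all probe sets it was -0.12 (adjusted p = 0.166). Its relative ZNF703 gave a log2 change of 0.03 (adjusted p = 0.696). ZNF546 had 8.05, 7.92 and 7.93 on the TGFβ arrays, against 8.85, 8.87 and 8.96 on the untreated arrays (log2 fold change -0.93, SE 0.059, adjusted p = 6.79e-05).

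**Figure D3:**
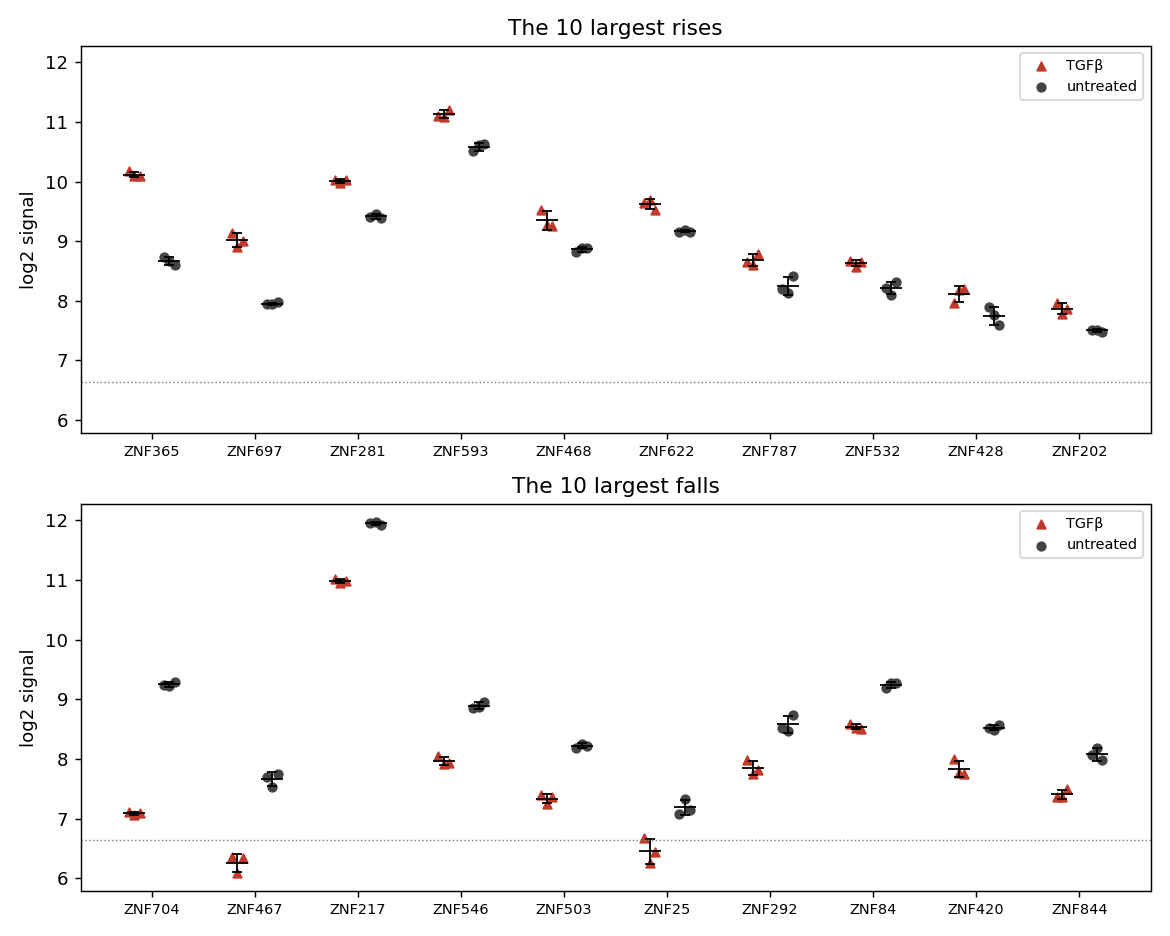
Log2 signal on every array for the 10 largest rises (top) and the 10 largest falls (bottom) among ZNF genes past the test and changed the same way in all 3 pairs. Triangles are the 3 TGFβ arrays and circles the 3 untreated arrays of each gene, bars give the mean ± SD, and 6.64, the signal limit, is drawn dotted. The groups are apart for ZNF365, at 10.09 and above with TGFβ, against 8.74 and below without, and for ZNF704, at 7.12 and below with TGFβ, against 9.22 and above without.

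The other falls of the leading 10 lay between 1.59-fold and 1.66-fold. ZNF292, a very large zinc finger protein mutated in a neurodevelopmental disorder, had 7.98, 7.74 and 7.82 on the TGFβ arrays, against 8.53, 8.48 and 8.74 on the untreated arrays (log2 fold change -0.73, SE 0.077, adjusted p = 0.000464), and -0.46 with all probe sets. ZNF420, which restrains p53, had 8.0, 7.77 and 7.75 on the TGFβ arrays, against 8.51, 8.49 and 8.58 on the untreated arrays (log2 fold change -0.69, SE 0.070, adjusted p = 0.000401). ZNF25 had 6.67, 6.25 and 6.44 on the TGFβ arrays, against 7.08, 7.33 and 7.15 on the untreated arrays, with 2 TGFβ arrays and their mean below the signal limit, so that it too was kept only through the untreated arrays and its log2 fold change of -0.73 is a description. All 3 genes had every TGFβ array below every untreated array. ZNF84 had 8.59, 8.53 and 8.51 on the TGFβ arrays, against 9.19, 9.27 and 9.28 on the untreated arrays (log2 fold change -0.70, SE 0.056, adjusted p = 0.000157), and its brightest probe set alone gave -0.37. ZNF844 had 7.37, 7.36 and 7.49 on the TGFβ arrays, against 8.07, 8.18 and 7.98 on the untreated arrays (log2 fold change -0.67, SE 0.073, adjusted p = 0.000518), and -0.35 with all probe sets.

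ZNF proteins that work at promoters or in chromatin complexes moved in both directions. Of 20 listed, 15 were expressed, of which 4 were higher, 4 were lower and 7 did not pass, with a median log2 fold change of -0.090. These shares, 26.7% in each direction, lie near the 27.5% higher and 30.4% lower of all genes. Besides ZNF217 and ZNF281, ZNF652, a partner of the corepressor CBFA2T3, fell, with 7.86, 7.87 and 7.75 on the TGFβ arrays, against 8.55, 8.55 and 8.38 on the untreated arrays (log2 fold change -0.67, SE 0.049, adjusted p = 0.000112). ZNF24 fell as well, at a log2 change of -0.47 (adjusted p = 0.000531), or -0.30 with all probe sets. Within the complex of ZNF532, ZNF592 rose with a log2 change of 0.24 (adjusted p = 0.00598), although its brightest probe set gave -0.19 (adjusted p = 0.0704) against 0.46 and 0.45 in the others, while ZNF687 gave a log2 change of -0.06 (adjusted p = 0.359). ZNF384, a fusion partner in leukaemia, rose with a log2 change of 0.16 (adjusted p = 0.0306).

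Among 14 members that act on RNA, ribosomes, the spindle or other targets away from promoters, 4 were higher and 7 lower, with a median of -0.17. The 28.6% higher lies near the 27.5% of all genes, and the 7 of 14 lower stand beside 30.4%. The higher ones were ZNF593 and ZNF622, described above, ZNF598, a ubiquitin ligase that senses collided ribosomes, at a log2 change of 0.30 (adjusted p = 0.00748), and ZNF330 at a log2 change of 0.24 (adjusted p = 0.00731). The lower ones included ZNF185, a LIM-domain protein on actin filaments rather than a C2H2 protein, with 7.91, 7.91 and 8.01 on the TGFβ arrays, against 8.44, 8.38 and 8.44 on the untreated arrays (log2 fold change -0.48, SE 0.050, adjusted p = 0.000457). ZNF638, which recruits the HUSH silencing complex to retroviral DNA, fell with a log2 change of -0.31 (adjusted p = 0.008). ZNF207 (BuGZ), a kinetochore protein, fell with a log2 change of -0.24 (adjusted p = 0.0464), but its brightest probe sets gave -0.018 (adjusted p = 0.858) and -0.046 (adjusted p = 0.511). The SUMO ligase ZNF451 fell with a log2 change of -0.19 (adjusted p = 0.0193) on the strength of 1 probe set at -0.49, while the brighter one gave 0.11 (adjusted p = 0.115). ZNF706 fell with a log2 change of -0.48 (adjusted p = 0.000527) over its probe sets, but its brightest probe set gave -0.036 (adjusted p = 0.606).

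Of 13 genes listed for links to TGFβ or BMP signalling, EMT or epithelial state, 9 were expressed. The higher ones were ZNF365, ZNF281 and ZNF8, a SMAD1 partner, at a log2 change of 0.19 (adjusted p = 0.0228). The lower ones were ZNF704, ZNF217, ZNF503, ZNF451 and ZNF580, the last at a log2 change of -0.29 (adjusted p = 0.00544). The median of the 9 was -0.19, and ZNF703 did not pass. The shares were 33.3% higher and 55.6% lower, beside 27.5% and 30.4% of all genes. This list was drawn up with earlier results of these data known, so its count is no independent evidence of a direction.

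KRAB members with a known target or partner were measured for 9 of 13 genes, of which 1 was higher (ZNF202), 4 were lower and 4 did not pass, with a median of -0.17. In all, 55.6% of them were called, near the 58.0% of all genes, with 11.1% higher and 44.4% lower, beside 27.5% and 30.4%. ZNF91, which represses SVA retrotransposons, fell, with 8.14, 7.75 and 7.81 on the TGFβ arrays, against 8.59, 8.60 and 8.51 on the untreated arrays (log2 fold change -0.66, SE 0.081, adjusted p = 0.000811). Only 1 of its 7 probe sets lay above the limit, and over all 7 the log2 fold change was -0.12 (adjusted p = 0.155). ZNF10 (KOX1), the source of the KRAB domain in many synthetic repressors, fell, with 7.05, 6.97 and 7.07 on the TGFβ arrays, against 7.52, 7.38 and 7.48 on the untreated arrays (log2 fold change -0.43, SE 0.049, adjusted p = 0.000617). The imprinted gene ZNF331 fell with a log2 change of -0.36 (adjusted p = 0.00107) and ZNF268 with a log2 change of -0.32 (adjusted p = 0.00218). ZNF274, which brings SETDB1 to the 3′ ends of other ZNF genes, gave a log2 change of -0.17 (adjusted p = 0.109), and ZNF445, a regulator of imprinted loci, gave a log2 change of 0.02 (adjusted p = 0.715).

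The partners of KRAB proteins were mixed. All 17 listed genes were measured, with 2 higher, 5 lower, 10 not past the test and a median of 0.0018. The share called, 41.2%, is below the 58.0% of all genes, and the 29.4% lower is near the 30.4% of all genes. TRIM28, the common corepressor, averaged 10.9 ± 0.12 on TGFβ arrays and 10.8 ± 0.17 on untreated arrays (log2, SD, n = 3 each), with a log2 fold change of 0.11 (adjusted p = 0.274). Lower with TGFβ were TASOR (log2 fold change -0.42, SE 0.074, adjusted p = 0.00352) and MPHOSPH8 (log2 fold change -0.37, SE 0.049, adjusted p = 0.00112), which are subunits of the HUSH complex, whereas the subunit PPHLN1 gave a log2 change of 0.08 (adjusted p = 0.273). The SETDB1 partner ATF7IP fell with a log2 change of -0.32 (adjusted p = 0.00394), or -0.20 by its brightest probe set, and the HP1 protein CBX1 with a log2 change of -0.26 (adjusted p = 0.00388). CHD3, a remodeller of the NuRD complex, rose with a log2 change of 0.35 (adjusted p = 0.00392). Calls near the threshold did not hold throughout. SETDB1 fell with a log2 change of -0.21 (adjusted p = 0.0484), and this did not pass without the arrays numbered 1 (-0.20, adjusted p = 0.0705) or 3 (-0.13, adjusted p = 0.264), or with each array centred on its median (-0.21, adjusted p = 0.0503). HDAC2 rose with a log2 change of 0.22 (adjusted p = 0.0351), and this did not pass without those numbered 1 (0.14, adjusted p = 0.0682) or 2 (0.23, adjusted p = 0.108). The brightest probe set of TASOR gave -0.13 (adjusted p = 0.248), and that of HDAC2 gave 0.12 (adjusted p = 0.273). Over all alternative settings that gave a value, SETDB1 kept its call in 6 of 13, HDAC2 in 9 of 14 and TASOR in 11 of 13.

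Families of zinc finger genes with other names were measured on the same arrays. Of 27 ZBTB genes, whose proteins carry a BTB domain, 3 were higher and 15 lower, with a median of -0.22. Of 11 ZSCAN genes, with a SCAN domain, 0 were higher and 5 lower, with a median of -0.081, and of 6 ZKSCAN genes, with both a KRAB and a SCAN domain, 0 were higher and 3 lower, with a median of -0.28. Of 11 ZFP genes 2 were higher and 4 lower, with a median of -0.090. The shares lower were 55.6% for ZBTB, 45.5% for ZSCAN, 3 of 6 for ZKSCAN and 36.4% for ZFP, and those higher were 11.1%, 0.0%, 0.0% and 18.2%, beside 30.4% lower and 27.5% higher of all genes. Most of these families are small, and no test of a difference between families was made.

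Chromosome 19 carried 109 of the 247 ZNF genes. On it 10 were higher and 51 lower, which is 46.8% lower, with a median of -0.17. The 138 ZNF genes elsewhere held 22 higher and 58 lower, 42.0% lower, with a median of -0.13. The 550 other genes of chromosome 19 held 182 higher and 126 lower, 22.9% lower, with a median of 0.031. The differences between these 3 sets were not tested. Chromosome 7, the next richest, had 21 ZNF genes, of which 2 were higher and 10 lower (median -0.20), and chromosome 16 had 17, of which 4 were higher and 5 lower (median -0.0084). Chromosome 12 had 10, with 2 higher and 6 lower (median -0.23), while chromosome 1, with 13, had more higher than lower, 4 against 2 (median -0.027). The shares lower on chromosomes 7, 16, 12 and 1 were 47.6%, 29.4%, 60.0% and 15.4%, beside 30.4% of all genes. Those higher were 9.52%, 23.5%, 20.0% and 30.8%, beside 27.5%. Chromosome 16 thus lay near all genes, as did the share higher on chromosome 1. Chromosomes and gene order were taken from the RefSeq gene table.

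Along chromosome 19 the ZNF genes were split into 15 stretches wherever the starts of neighbouring members lay more than 1 Mb apart, a rule set after the values were seen. The stretch that runs across ZNF627 to ZNF791 held 10 members, all with log2 fold changes below 0, of which 8 were lower and 0 higher. Its median was -0.30 and its values ran between -0.67 and -0.098. The neighbouring stretch of ZNF557 to ZNF562 had 9 members, with 1 higher, 3 lower and a median of 0.018. In the stretch of ZNF565 to ZNF573, 9 of 17 members were lower and 2 higher (median -0.18), and in that of ZNF175 to ZNF331, 7 of 15 were lower and 2 higher (median -0.19). The largest stretch, ZNF579 to ZNF446 near the end of the long arm, held 30 members, of which 9 were lower and 3 higher (median -0.053). All genes had 30.4% lower and 27.5% higher, and the share lower in this last stretch is close to that. Neighbours within a stretch had the same sign in 62 of 94 adjacent pairs. With 77 of the 109 members below 0 (70.6%), most pairs would share a sign in any order. Whether neighbours were more alike than that was not tested. Members of a cluster share sequence, so their values are not independent of each other.

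**Figure D4:**
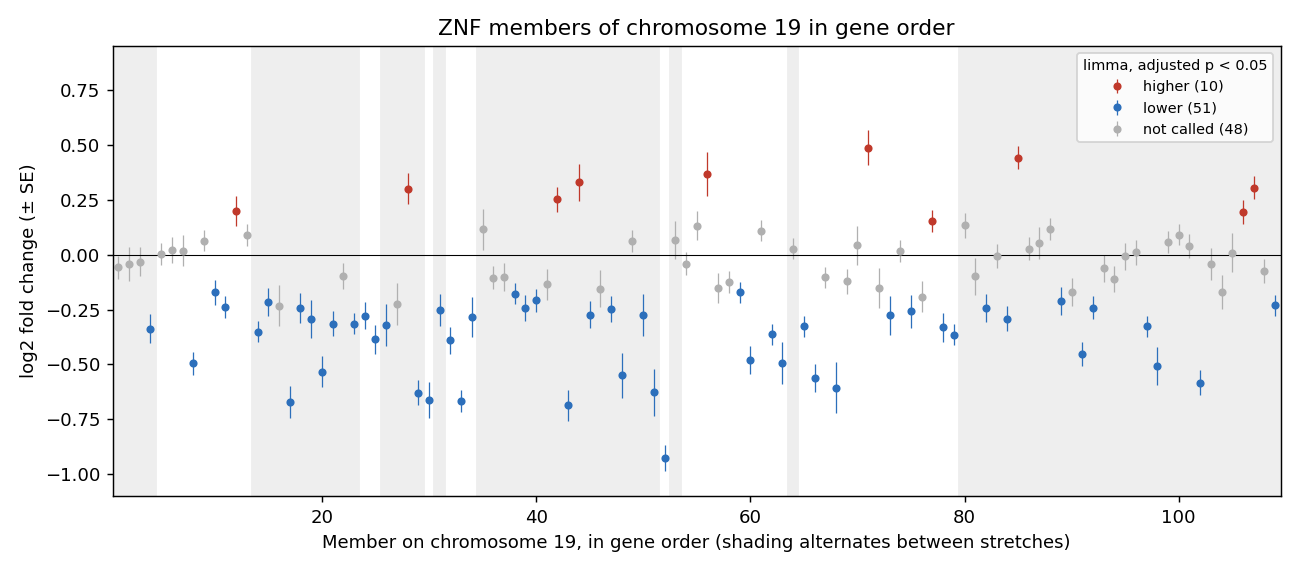
Log2 fold change, TGFβ minus untreated, with bars of 1 SE, for the 109 ZNF genes of chromosome 19 in gene order. Shading alternates between the 15 stretches, and colours mark 10 higher, 51 lower and 48 not called genes. The stretch of 10 members ZNF627 to ZNF791 lies wholly below 0.

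The ZNF probe sets were dimmer than most, with a median mean signal of 7.88 beside 8.70 for all genes tested and a lowest value of 6.65. The mean signal chose the members and is given as a description. Lower ZNF genes outnumbered higher ones in each of 4 equal bins of ZNF signal. Among the other genes they did so in all bins but the brightest. In the dimmest bin, 24 of 62 ZNF genes were lower and 6 higher (38.7% and 9.68%), beside 34.6% and 21.2% of the 1389 other genes in the same range of signal. In the brightest bin, above 8.50, 30 of 62 were lower and 11 higher (48.4% and 17.7%), beside 27.9% and 30.5% of 4990 other genes. Bins 2 and 3 held 28 of 61 and 27 of 62 lower, 45.9% and 43.5%, beside 32.3% and 34.0%. Their shares higher were 6.56% and 17.7%, beside 26.3% and 27.1% of the other genes. The gap in the share of lower genes was smallest in the dimmest bin.

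The brightest ZNF gene was ZNF664, with 11.82, 11.86 and 11.81 on the TGFβ arrays, against 12.13, 12.16 and 12.18 on the untreated arrays (log2 fold change -0.33, SE 0.049, adjusted p = 0.00183). Only 1 of its 4 probe sets lay above the limit, and over all 4 the log2 fold change was -0.054 (adjusted p = 0.561). ZNF217 and ZNF593 followed it, then ZNF146, a protein made of zinc fingers alone, at a log2 change of -0.11 (adjusted p = 0.132), and ZNF558, which fell with a log2 change of -0.49 (adjusted p = 0.000488). At the signal limit, the probe sets just inside belonged to ZNF784 (6.653), ZNF793 (6.677), ZNF227 (6.703) and ZNF416 (6.711), and those just outside to ZNF93 (6.635), ZNF391 (6.634), ZNF510 (6.627) and ZNF319 (6.625). Of the 247 members, 119 had every probe set above the limit, with 17 higher, 53 lower and a median of -0.13. The other 128 had some below it, with 15 higher, 56 lower and a median of -0.17. The shares of these 2 sets were alike, at 14.3% and 11.7% higher and 44.5% and 43.8% lower. All genes had 27.5% higher and 30.4% lower.

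The 247 genes were read by 336 probe sets. Of these 40 were higher and 147 lower, 11.9% and 43.8%, beside 26.7% and 28.2% of all 16440 probe sets kept. A single probe set read 177 members and 70 had several, up to 6. In 57 of the 70 all probe sets moved in 1 direction, all down in 43 and all up in 14, and the median gap between the highest and lowest was 0.14. For 23 members every probe set carried the array maker's _x_at mark for sequence that is not unique, and 63 had none of the plain _at kind.

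In ZNF655 the probe sets passed the test in opposite directions, and in ZNF81 they also moved in opposite directions, with the rise given as a description. One of ZNF81 fell, with 7.45, 7.46 and 7.50 on the TGFβ arrays, against 8.04, 8.01 and 8.04 on the untreated arrays (log2 fold change -0.56, adjusted p = 0.000359). The other rose, with 7.31, 7.33 and 7.56 on the TGFβ arrays, against 6.62, 6.60 and 6.64 on the untreated arrays. Its untreated mean lay below the signal limit, so it was kept only through the TGFβ arrays. Its log2 fold change of 0.78 is therefore a description. The mean of the 2 probe sets gave a log2 change of 0.11 (adjusted p = 0.117) for ZNF81. In ZNF655 a probe set fell, with 9.25, 9.21 and 9.37 on the TGFβ arrays, against 9.83, 9.91 and 9.91 on the untreated arrays (-0.61, adjusted p = 0.000354). Another rose, with 9.20, 9.27 and 9.18 on the TGFβ arrays, against 8.66, 8.69 and 8.85 on the untreated arrays (0.49, adjusted p = 0.00148), and the gene's value was a log2 change of -0.06 (adjusted p = 0.322). The groups did not overlap in either probe set of ZNF655, so a single value does not describe that gene. For ZNF81 the opposite direction rests on the probe set kept only through the TGFβ arrays. Wide gaps in size were seen for ZNF706, at -0.036 and -0.92, for ZNF236, at -0.22 and -0.89, and for ZNF148, a widely expressed promoter-binding factor, whose 6 probe sets ran between -0.62 and 0.16. The -0.89 of ZNF236 is a description, since that probe set had a TGFβ mean of 6.38, below the signal limit. The call of ZNF148 as lower, at a log2 change of -0.17 (adjusted p = 0.0222), did not pass without the arrays numbered 2 (-0.16, adjusted p = 0.137) or 3 (-0.18, adjusted p = 0.097), and its brightest probe set gave 0.16 (adjusted p = 0.116).

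**Figure D5:**
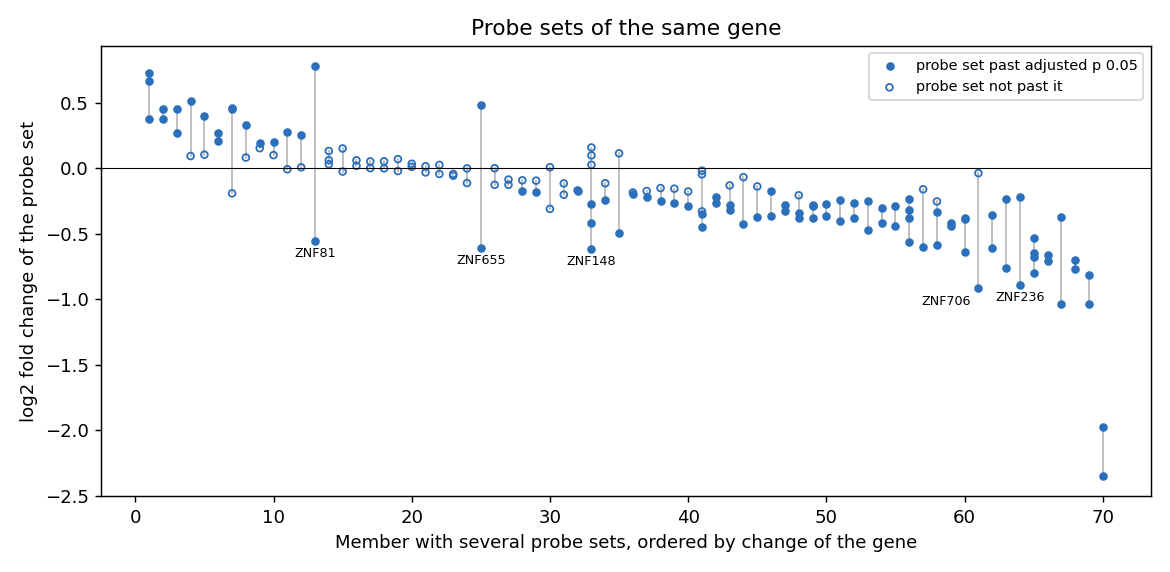
Log2 fold change, TGFβ minus untreated, of every probe set of the 70 ZNF genes with several, ordered by the gene's value, with a line joining probe sets of a gene. Filled points passed an adjusted p of 0.05 and open points did not. ZNF81 and ZNF655 span 0 with filled points on both sides, and both probe sets of ZNF704 lie at the bottom.

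Promoter sequence was read from RefSeq windows of 300 bases, 250 before to 50 after each annotated start, on build GRCh38.p14. Windows were found for 218 of the 247 genes, 292 in all, among 35116 windows of all genes. Both strands were searched for 7 sets of letters. The letters CCGGAAGT, which ETS factors can bind, were in 51 of 292 ZNF windows, 17.5%, beside 4.14% of all windows and 5.33% of those of protein-coding genes. They were in 11 of 42 windows of ZNF genes called higher, 19 of 132 of those called lower and 21 of 118 of those not called, which is 26.2%, 14.4% and 17.8%. The share was 19.5% on chromosome 19 and 15.7% elsewhere. CCAAT, the letters of the CCAAT box, were in 41.8% of ZNF windows, beside 34.6% of all windows and 34.7% of protein-coding ones. The share was 26.2% (11 of 42) for ZNF genes called higher, 45.5% for those called lower and 43.2% for those not called. CAGACA, which holds a core bound by SMAD proteins, was in 16.4% of ZNF windows beside 16.9% of all and 15.2% of protein-coding windows, and the longer GTCTAGAC was in 0 of 292 beside 0.202% of all and 0.216% of protein-coding windows. TGACGTCA, the letters of the cAMP response element, were in 4.11% beside 1.85% and 2.26%. Of 1 exact spelling each, the NRF1 motif and the YY1 motif were in 2.4% and 1.37% of ZNF windows, beside 1.24% and 1.2% of all windows and 1.5% and 1.68% of protein-coding ones, so the order turns for YY1. A match is a description of letters and not a site in use.

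The letters CCGGAAGT stand in the windows of ZNF genes on both sides of the comparison, as the following stretches show for 3 that rose and 3 that fell. They are printed 5′ to 3′ on the gene's strand, the letters (or ACTTCCGG where they lie on the other strand) are in capitals, and the genes were chosen after their values were seen.
ZNF622, chr5:16465801-16465840, minus strand: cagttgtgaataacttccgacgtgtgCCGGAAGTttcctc
ZNF787, chr19:56121427-56121486, minus strand: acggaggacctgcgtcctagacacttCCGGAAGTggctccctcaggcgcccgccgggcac
ZNF70, chr22:23751137-23751196, minus strand: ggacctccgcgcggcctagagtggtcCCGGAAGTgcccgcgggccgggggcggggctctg
ZNF606, chr19:58002840-58002899, minus strand: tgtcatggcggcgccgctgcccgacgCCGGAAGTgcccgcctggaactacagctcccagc
ZNF776, chr19:57746770-57746814, plus strand: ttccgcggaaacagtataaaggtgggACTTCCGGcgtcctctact
ZNF407, chr18:74597797-74597856, plus strand: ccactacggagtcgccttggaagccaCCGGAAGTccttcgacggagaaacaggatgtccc
The letters began 14, 165 and 58 bases before the annotated start in ZNF622, ZNF787 and ZNF70, which rose by 0.45, 0.44 and 0.32 on the log2 scale. In ZNF606, ZNF776 and ZNF407 they began 53, 19 and 47 bases before it, and these genes fell by 0.58, 0.51 and 0.50. The positions in the genes that rose and in those that fell overlapped.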

How the data were processed

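RNA of Panc-1 cells was hybridised by the authors to 6 Affymetrix arrays, and the deposited table holds log2 signals, 1 per probe set and array. The unit was read from the values. Their normalisation and software are not given in the sources used here. Labels do not say whether the 3 replicates were separate cultures, so p-values measure the spread between these arrays, whose number limits precision.

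Of 54675 probe sets, 62 controls were left out, and 41091 named 1 gene in the platform annotation, covering 19777 genes (1801 named several genes and 11721 none). Symbols were updated through RefSeq, which held 19735 of the genes. A further 46 probe sets that name a ZNF gene and others were not used. Each gene was given the mean of its probe sets with a mean log2 signal at or above 6.64. TGFβ minus untreated was fitted with limma 3.58.1 (lmFit, eBayes, R 4.3.3) over 9850 genes, with the replicate number as a block, following the paired test of the methods, and leaving 2 residual and 4.27 prior degrees of freedom. P-values were two-sided and Benjamini-Hochberg adjusted over all genes, at 0.05. Probe sets were fitted likewise. The scripts were tested on simulated data.

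Genes named were the 10 largest rises and falls past the test with 1 sign in all pairs, the 5 of highest signal, the 5 with the widest gap between probe sets, those at the signal limit, the largest changes of each role list, and the KRAB partners past the test. Other list members are named for their role. The members and lists were chosen with earlier results of these data known. Alternatives covered the block, signal filter, normalisation, added constant, variance model, probe set choice, replicates, test and threshold. Plots used Python 3.11.15, pandas 2.3.3 and matplotlib 3.10.9.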

Additional observations from a re-analysis of the deposited data

How the results depend on the processing

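In every alternative run, more ZNF genes were lower than higher, and the share called lower was above that of all genes tested, though nearly equal at a change of at least 1.5-fold (6.88% and 6.7%). With no filter on low signal the 247 members, all expressed, are set against all 19777 genes on the array, which is not a like comparison. The fit without the replicate number as a block called 152 ZNF genes (37 higher, 115 lower) and 6029 of all genes, against 141 (32 and 109) and 5710 with it. Deviations of same-numbered arrays correlated at -0.285, 0.251 and 0.073, and those of unlike-numbered arrays at -0.427 to 0.334. With 3 arrays per group these values cannot settle whether the arrays were paired. With no filter on low signal, 93 ZNF genes were called, 19 of them higher, and 4 KRAB partners in place of 7. Leaving out 1 replicate gave 20 to 31 higher, 77 to 131 lower and 99 to 162 called in all. The methods' t-test called 98 ZNF genes and 4638 of all genes at its own threshold, and after Benjamini-Hochberg adjustment 44 ZNF genes (9 higher, 35 lower) and 2145 of all genes. An adjusted p under 0.01 left 93 (18 higher), and a change of at least 1.5-fold left 20 (3 higher, 17 lower) and 1235 of all genes. ZNF81 turned to -0.555 with a signal limit of 200 and with the brightest probe set, and ZNF148 turned to 0.159 with the brightest probe set, in each case because other probe sets of the gene then drop out. Of 41 named genes, 29 kept direction and call in each setting that gave them a value, 12 to 14 settings a gene. The t-test and the stricter thresholds were applied to counts and not to single genes. The split of ZNF genes by a KRAB pattern in the protein was not run, since no protein sequences were used here. Precision was similar for ZNF genes and all genes, with median SEs of 0.059 and 0.056.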
